A study of Mus musculus with 10 samples.

Results

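This account concerns 9 genes of the complement system in pulp mesenchyme from lower incisors of mice: C1qa, C1qb, C1qc, C1ra, C3, Cfp, C3ar1, C5ar1 and Serping1. They were given as a list of symbols, and a probe set was taken where the platform annotation paired it with exactly 1 of these symbols. This found 14 probe sets for 8 of the 9 genes, among 18193 genes in all. C3, the gene left without such a probe set, was not analysed for expression here. Where a gene had several probe sets, that of highest average signal was used and the rest served as a check; a probe set shared by C1ra and its near copy C1rb was not used. In wild-type C57BL/6J mice the inferior alveolar nerve, which carries the sensory supply of the lower teeth, was cut out on a single side, and mesenchyme of both lower incisors was taken 2 weeks later at postnatal day 60. The 5 arrays from the operated side are called denervated and the 5 from the other side contralateral. Sex was not determined per the labels, and the contralateral incisors came from operated animals too. Without sham-operated incisors, effects of the operation and of losing the nerve cannot be told apart.

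Complement is a set of secreted proteins that tag microbes, dead cells and debris for removal. In the classical route C1q, a bundle of chains from C1qa, C1qb and C1qc, binds a target and switches on the proteases C1r and C1s, which cut C4 and C2 so that C3 can be cleaved. Properdin, the product of Cfp, holds the C3-cleaving enzyme of the alternative route together, and the C1 inhibitor, the product of Serping1, inactivates C1r and C1s. The receptors C3AR1 and C5AR1 sense the fragments C3a and C5a on myeloid cells. Tissue macrophages are a main source of C1q, whereas C1r, C1s and the C1 inhibitor are made largely by fibroblasts and other stromal cells as well as by the liver.

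The values are log2 intensities as deposited, with array medians of 1.48 to 1.54 and highest values of 12.9 to 13.2. A probe set's level holds its own hybridization strength, so differences were taken between arrays. Levels of different genes can be set against each other only roughly. The 5 genes C1qa, C1qb, C1qc, C1ra and Serping1 had a mean of at least 4, while Cfp, C3ar1 and C5ar1 had means of 2.87, 2.52 and 2.02, above the array medians and below the other 5; the lowest values of the arrays were -0.16 to -0.06. Odontoblast markers were high in every array, with a mean level of 9.77 to 10.61 over 6 genes. Enamel epithelium transcripts were abundant in samples labelled as mesenchyme: the mean level of 10 epithelial markers was 9.02 to 9.59 in 9 arrays and 6.41 in denervated array 3. Arrays of equal number were taken as both incisors of 1 mouse. In bulk samples more cells of a type and more RNA per cell cannot be told apart.

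The 3 C1q genes lie side by side on chromosome 4 and span 18719 bases (136880126 to 136898844, GRCm38.p6), with no other gene of the RefSeq table between them. C1ra and C3ar1 lie on chromosome 6, Serping1 on chromosome 2, C5ar1 on chromosome 7 and Cfp on the X chromosome. The 250 bases before the start used in the RefSeq promoter windows are shown for C1qb, C1qc and C1ra. These genes stand for the cluster and for the protease that acts next to it. For C1qc this start lies inside the gene record, which runs from 136889801 to 136892936. Capitals mark matches to GAGGAA (the ETS core, which PU.1 of myeloid cells can bind), TTNNGNAA (C/EBP) and GGGCGG (SP1), each searched on both strands. Each runs 5′ to 3′ on the gene's own strand.
C1qb, chr4:136886201-136886450, minus strand: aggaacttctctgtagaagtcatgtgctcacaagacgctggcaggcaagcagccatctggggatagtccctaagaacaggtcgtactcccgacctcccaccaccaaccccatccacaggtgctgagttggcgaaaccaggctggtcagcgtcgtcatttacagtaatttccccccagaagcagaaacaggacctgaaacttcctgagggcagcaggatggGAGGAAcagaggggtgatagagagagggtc
C1qc, chr4:136892915-136893164, minus strand: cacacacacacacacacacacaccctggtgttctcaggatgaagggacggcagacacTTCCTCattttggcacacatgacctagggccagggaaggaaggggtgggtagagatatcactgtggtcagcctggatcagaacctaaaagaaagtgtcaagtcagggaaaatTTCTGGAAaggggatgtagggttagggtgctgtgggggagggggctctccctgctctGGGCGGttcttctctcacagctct
C1ra, chr6:124512371-124512620, plus strand: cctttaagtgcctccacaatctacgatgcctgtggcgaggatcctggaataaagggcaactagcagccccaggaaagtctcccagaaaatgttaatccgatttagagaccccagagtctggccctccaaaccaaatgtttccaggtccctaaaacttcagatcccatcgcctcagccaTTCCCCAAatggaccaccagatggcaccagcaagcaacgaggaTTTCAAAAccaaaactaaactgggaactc
The C1qb stretch holds a GAGGAA that begins 30 bases before the start, and the C1qc stretch holds its reverse complement from 193 bases before the start. Over the whole RefSeq window of 300 bases, which reaches 50 bases past the start, GAGGAA was found in 4 of the 7 complement genes with a window (C1qb, C1qc, C1ra and Cfp) and in 28.3% of 32851 windows. TTNNGNAA stood in 4 of the 7 (C1qc, C1ra, C5ar1 and C3) and in 40.7% of all, GGGCGG in 2 (C1qc and C3ar1) and in 35.7%, and the TATA box TATAAA in 2 (C3ar1 and C3) and in 13.6%. The interferon-stimulated response element was in 0 of the 7 and in 3.44% of all. These are matches of letters and not measured binding sites. C1qa and Serping1 have no window in the table.

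On average all 8 measured complement genes were higher on the denervated side, and none passed limma's test after adjustment over all genes. The median difference of the 8 was 0.51 on the log2 scale, beside 0.02 over all genes, of which 55.8% were higher. Among the 7919 genes with a mean of at least 4 the median was 0.04 and 63.9% were higher. Adjusted p-values were 0.790 to 0.833, and 0 of 8 members passed, as did 0.0% of all genes. At an unadjusted p under 0.05 there were 4 of 8 (C1qa, C1qb, C1ra and Serping1), beside 4.1% of all genes in this direction. With the mouse as a block in limma 7 of 8 members reached that unadjusted level, all but Cfp, beside 6.99% of genes higher at that level, and adjusted p-values were 0.355 to 0.692. In each of the 5 mice 6 members were higher in the denervated incisor, the exceptions being Cfp and C3ar1. Being higher in all 5 mice held for 6.58% of all genes and for 9.18% of those with a mean of at least 4. The groups overlapped for all 8: in 0 of 8 did every denervated array lie above every contralateral array, as did 0.528% of genes. The direction of the list was known when it was chosen, so these counts are a description.

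**Figure D1:**
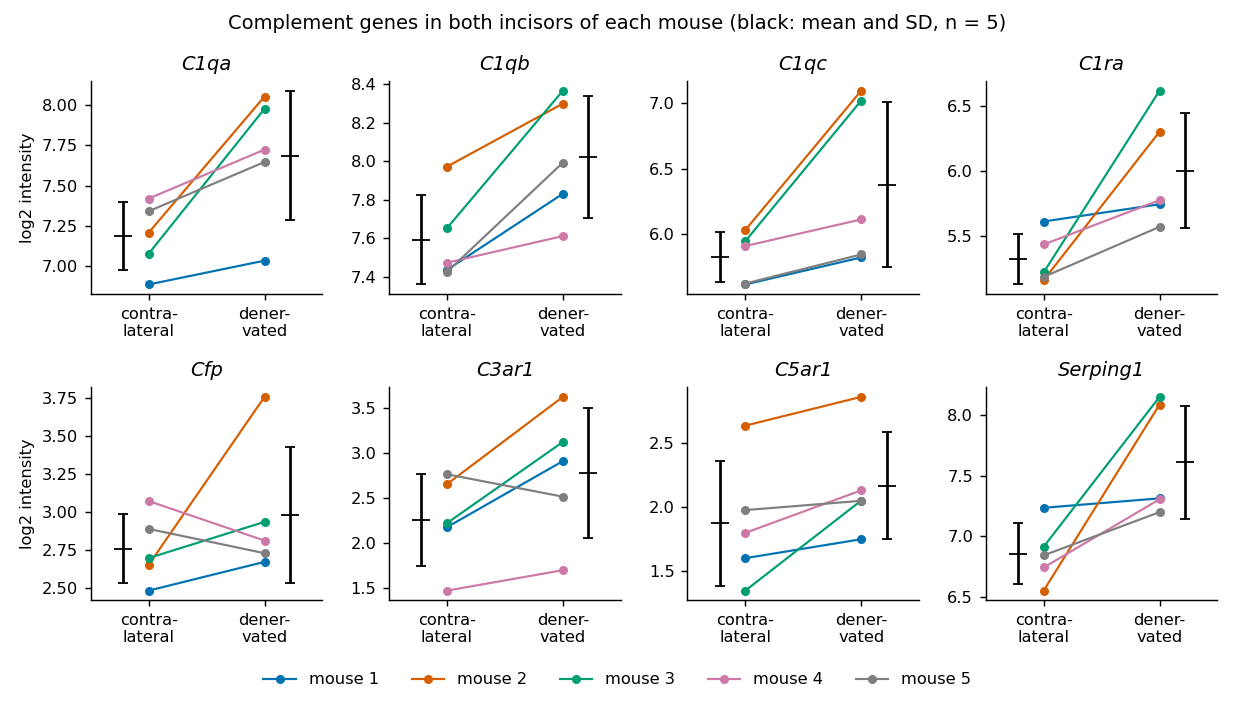
Log2 intensity of the 8 measured complement genes (vertical axis, own scale per panel) in the contralateral and denervated incisor of each mouse, joined by a line, with the mean and SD of 5 arrays in black. Lines rise in all 5 mice for 6 genes and are steepest in mice 2 and 3 for C1qc, C1ra and Serping1.

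The chains of C1q were higher in every mouse. C1qa had 7.03, 8.05, 7.98, 7.72 and 7.65 in denervated arrays 1 to 5 and 6.88, 7.21, 7.08, 7.42 and 7.34 in contralateral arrays 1 to 5. Of its denervated values 4 exceeded the highest contralateral one, and the value of mouse 1 was low on both sides. Its difference was 0.50 ± 0.18 (SE, 95% interval 0.10 to 0.90), with 0.15 in mouse 1, 0.85 and 0.90 in mice 2 and 3 and 0.30 and 0.31 in the others. C1qb had 7.83, 8.30, 8.37, 7.61 and 7.99 in the denervated arrays and 7.44, 7.97, 7.65, 7.47 and 7.42 in the contralateral ones. Here the denervated values of mice 2, 3 and 5 were above all contralateral ones, and mouse 2 was high on both sides. The difference was 0.43 ± 0.16 (0.08 to 0.78), a ratio of 1.35, with 0.40, 0.33, 0.72, 0.14 and 0.57 in mice 1 to 5. The probe set used for C1qb is of a class whose probes can also match other transcripts. The other C1qb probe set of this class gave 0.70 ± 0.19, and the C1qb probe set outside it gave 0.55 ± 0.24. Each was higher in 5 of 5 mice.

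C1qc, the third chain, had 5.83, 7.10, 7.02, 6.12 and 5.85 in denervated arrays 1 to 5 and 5.62, 6.03, 5.95, 5.91 and 5.63 in contralateral arrays 1 to 5. The denervated arrays of mice 2 and 3 stood well above all others, and those of mice 1 and 5 lay within the contralateral range. The difference was 0.55 ± 0.26 (-0.01 to 1.11), made of 1.06 and 1.07 in mice 2 and 3 and of 0.20 to 0.22 in mice 1, 4 and 5. Its interval with the mouse as a block was 0.18 to 0.93.

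C1ra and Serping1, the protease of the C1 complex and its inhibitor, had the largest differences of the 8 genes. C1ra had 5.75, 6.30, 6.62, 5.78 and 5.57 in the denervated arrays and 5.61, 5.17, 5.22, 5.44 and 5.19 in the contralateral arrays. All denervated values except that of mouse 5 were above the highest contralateral value, that of mouse 1. The difference was 0.68 ± 0.19 (0.26 to 1.09), a ratio of 1.60, with 1.14 and 1.39 in mice 2 and 3 and 0.13 to 0.38 in the others. Serping1 had 7.31, 8.09, 8.15, 7.30 and 7.20 in the denervated arrays and 7.23, 6.55, 6.91, 6.74 and 6.84 in the contralateral arrays. Again only the denervated value of mouse 5 fell below the highest contralateral one, which was that of mouse 1. The difference was 0.75 ± 0.21 (0.30 to 1.21), a ratio of 1.69, with 1.54 in mouse 2, 1.24 in mouse 3 and 0.08 in mouse 1. The 2 genes, on different chromosomes, kept the mice in nearly the same pattern: once values were centred within each group, Pearson's r between them over the 10 arrays was 0.92, the highest of the 28 pairs of members, which ranged down to 0.07. Both genes were highest in denervated arrays 2 and 3. Contralateral array 4 was above array 3 for C1ra (5.44 and 5.22) and below it for Serping1 (6.74 and 6.91). The arrays share mice, so this r is a description. C1s1, the partner protease of C1r, was no member and showed 7.23 ± 0.42 against 6.63 ± 0.18 (SD, n = 5), a difference of 0.60 ± 0.18 and higher in 5 of 5 mice.

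Cfp, the properdin gene, had 2.67, 3.76, 2.94, 2.81 and 2.73 in denervated arrays 1 to 5 and 2.48, 2.65, 2.70, 3.07 and 2.89 in contralateral arrays 1 to 5. Only the denervated array of mouse 2 stood above the contralateral range, and mice 4 and 5 were lower on the denervated side. The difference of 0.22 ± 0.20 (-0.21 to 0.65) fell to 0.03 without denervated array 2. The second Cfp probe set, at a mean of 2.52, gave 0.56 ± 0.20 and was higher in 5 of 5 mice, so the probe sets of this gene disagree on mice 4 and 5.

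The receptor genes gave weak signals. C3ar1 had 2.92, 3.63, 3.13, 1.70 and 2.52 in the denervated arrays and 2.18, 2.66, 2.23, 1.48 and 2.77 in the contralateral arrays. Mouse 4 was lowest on both sides and mouse 5 was the only mouse with a lower denervated value. The difference was 0.52 ± 0.34 (-0.23 to 1.26), or 0.30 without denervated array 2 and 0.79 without denervated array 4. The other C3ar1 probe sets, with means of 0.99 and 1.28, gave 0.13 ± 0.13 and -0.05 ± 0.13. C5ar1 had 1.75, 2.87, 2.05, 2.13 and 2.05 in the denervated arrays and 1.60, 2.64, 1.34, 1.80 and 1.98 in the contralateral arrays. Mouse 2 was highest on both sides, and only its denervated value lay above the contralateral range. The difference was 0.30 ± 0.25 (-0.25 to 0.85), higher in 5 of 5 mice but by 0.07 to 0.33 in 4 of them, and it was 0.12 without denervated array 2 and 0.49 without contralateral array 2. The second C5ar1 probe set, at a mean of 1.11, gave 0.01 ± 0.08. For both receptors a difference above its SE was thus seen with 1 probe set only, apart from a C3ar1 probe set at 0.13 ± 0.13.

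**Figure D2:**
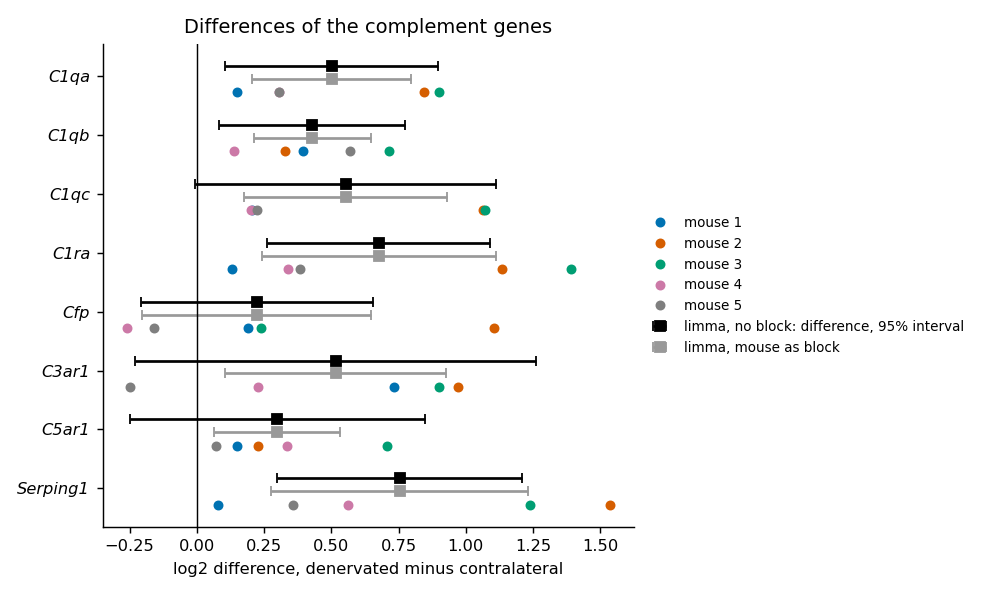
Log2 difference, denervated minus contralateral (horizontal axis), for each gene, with limma's 95% interval without the mouse (black) and with the mouse as a block (grey), and the 5 within-mouse differences as coloured points below. All 8 differences lie above 0, and mouse 2 or 3 exceeds 1 log2 unit for C1qc, C1ra, Cfp and Serping1.

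The size of the differences varied by mouse. The median over the 8 members was 1.02 in mouse 2 and 0.90 in mouse 3, against 0.17, 0.26 and 0.26 in mice 1, 4 and 5; the medians over all genes lay between -0.01 and 0.07. Mouse 3 gave the largest difference for 5 members and mouse 2 for the other 3. For C1qb, mice 1 and 5 (0.40 and 0.57) exceeded mouse 2 (0.33). For C5ar1, mouse 4 (0.33) exceeded mouse 2 (0.23). Leaving out the denervated samples of these mice, an alternative named because earlier results had shown them apart, lowered the median of the 8 to 0.17, and the differences to 0.42 for Serping1 (95% interval 0.11 to 0.72), 0.37 for C1ra (0.11 to 0.64), 0.28 for C1qa (-0.11 to 0.67), 0.22 for C1qb (-0.10 to 0.54) and 0.10 for C1qc (-0.18 to 0.38). C3ar1 then had 0.12, C5ar1 0.10 and Cfp -0.02. This fit was unpaired and kept the contralateral arrays of mice 2 and 3, so it does not compare the genes within mice. In it the intervals of C1ra and Serping1 lay above 0, while those of the C1q genes included it. The adjusted p in limma was 0.989 for all 5. Within mice 1, 4 and 5 C1ra differed by 0.13, 0.34 and 0.38 and Serping1 by 0.08, 0.56 and 0.36. In the same mice C1qa differed by 0.15, 0.30 and 0.31, C1qb by 0.40, 0.14 and 0.57 and C1qc by 0.21, 0.20 and 0.22.

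Markers of several other cell types also differed most in mice 2 and 3. The list of 17 macrophage and monocyte markers, none of them a complement gene, had 16 members higher and 1 lower, a median difference of 0.47, and mean levels of 5.49 to 6.19 in the denervated and 5.24 to 5.42 in the contralateral arrays; 11 were higher in 5 of 5 mice and Ccr2 was the only marker with a mean under 2. The CSF1 receptor gene Csf1r differed by 0.30 ± 0.15, or 0.18 without denervated array 3, and Cd68 by 0.74 ± 0.28. Adgre1 differed by 0.47 ± 0.14 and the Fc receptor gene Fcgr1 by 0.64 ± 0.12. Each of these genes was higher in 5 of 5 mice and none passed the threshold. The marker with a lower mean was Mertk, at -0.235 ± 0.172 and higher in 1 of 5 mice. Aif1 and Cd163 were higher in 3 of 5 mice. The 10 fibroblast and mesenchyme markers, 8 higher and 2 lower, had a median difference of 0.09 and mean levels of 7.75 to 8.16 against 7.79 to 7.88. Mice 2 and 3 had list differences of 0.20 and 0.33, while mice 1, 4 and 5 had 0.02, -0.01 and -0.04. Pdgfrb (0.33 ± 0.10) and Col3a1 (0.19 ± 0.08) were higher in 5 of 5 mice and at an unadjusted p under 0.05 in limma. Lum was also higher in 5 of 5. The lower means were those of Dcn (-0.13 ± 0.14) and Col1a1 (-0.09 ± 0.08). No marker of this list passed the threshold. Endothelial markers, 10 of 10 higher with a median of 0.17, differed by 0.58 and 0.56 in mice 2 and 3 and by -0.15 to -0.03 in the others. Of 8 neutrophil markers 8 had a higher mean, with a median of 0.34, and the list differed by 0.85 in mouse 2 and 1.93 in mouse 3 but by -0.69 to -0.17 in the others; 5 of the 8, Mpo, Elane, Camp, Ltf and Csf3r, had means under 2. Of 5 Schwann cell markers measured 4 had a higher mean and 1, Mbp, a lower one, and 2 (Sox10 and S100b) had means under 2. The Schwann list differed by 1.93 in mouse 2 and 0.75 in mouse 3 but by -0.29 to -0.07 in the others. Lymphocyte markers were all under 2. Odontoblast markers mostly differed in the other direction: 5 of 6 had a lower mean, with a median of -0.23, and 2 (Dspp and Nes) were lower at an unadjusted p under 0.05 in limma, beside 2.11% of all genes. The mean of the list differed by -0.81 in mouse 2, where Dmp1, a matrix protein gene, differed by -2.55; mouse 3 gave 0.06, and mice 1, 4 and 5 gave -0.19 to -0.05. The difference of Dmp1 was -0.48 ± 0.43, or -0.02 without denervated array 2. Dental epithelium markers were lower in 10 of 10, with a median of -0.41, or 0.01 without denervated arrays 2 and 3. The part of these cell types in the complement differences was not tested.

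**Figure D3:**
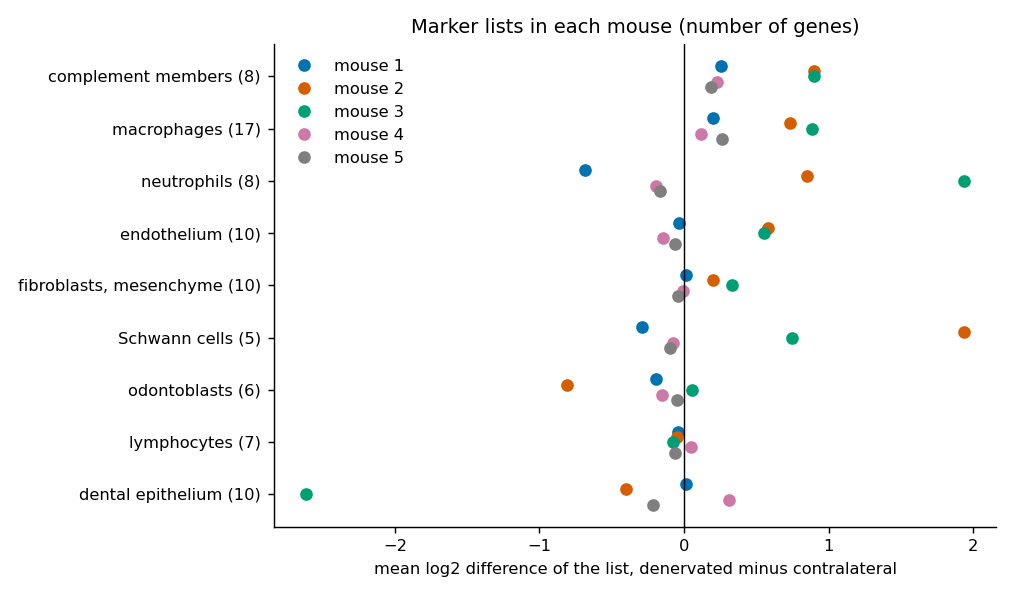
Mean log2 difference of each gene list, denervated minus contralateral (horizontal axis), 1 point per mouse, with the number of genes in parentheses. The complement members and the macrophage markers lie above 0 in all 5 mice and are highest in mice 2 and 3, while the dental epithelium markers are at -2.61 in mouse 3.

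C1q genes and macrophage markers differed by similar amounts in each mouse. The mean of C1qa, C1qb and C1qc was 7.36 ± 0.42 in the denervated and 6.87 ± 0.16 in the contralateral arrays (SD, n = 5), a difference of 0.50, with 0.25, 0.75, 0.90, 0.22 and 0.37 in mice 1 to 5. The mean of the 17 macrophage markers was 5.77 ± 0.36 against 5.33 ± 0.08, a difference of 0.44, with 0.20, 0.73, 0.88, 0.12 and 0.26. Their gap, C1q minus macrophage markers, was 1.59 ± 0.11 against 1.53 ± 0.11, and its within-mouse difference was 0.05, 0.01, 0.02, 0.10 and 0.10. The log2 level of C1q relative to these markers thus differed by 0.06, beside 0.50 for C1q itself. This was less than the spread between arrays, but positive in 5 of 5 mice and larger than the SD of 0.04 of the within-mouse differences. Array 1 was lowest in the gap on both sides (1.40 and 1.35), and the difference was 0.01 without contralateral array 1 and 0.10 without denervated array 1. With the mean of all probe sets per gene it was 0.16.

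**Figure D4:**
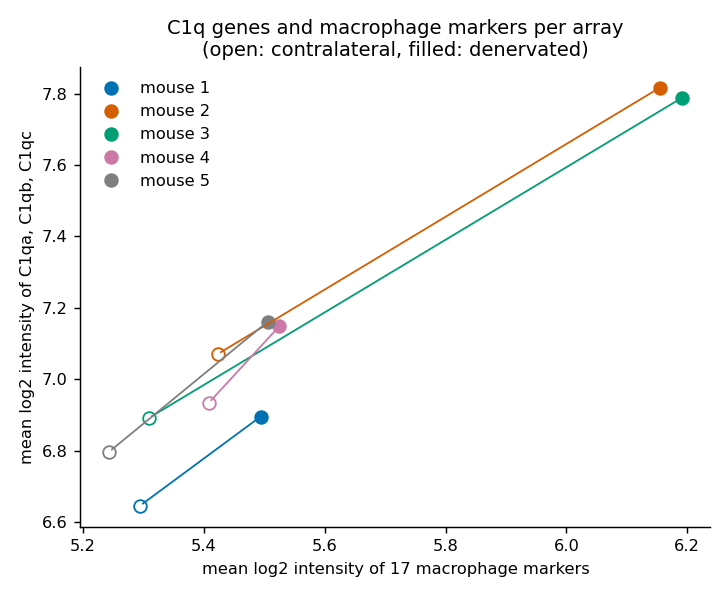
Mean log2 intensity of C1qa, C1qb and C1qc (vertical axis) against that of 17 macrophage markers (horizontal axis), with a line from the contralateral (open) to the denervated (filled) incisor of each mouse. All 5 lines run up and to the right, and the denervated incisors of mice 2 and 3 stand apart at the top.

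Beyond the members, 35 other complement genes were measured: 19 had a higher and 16 a lower mean, with a median of 0.02, and none passed the test with or without the block. At an unadjusted p under 0.05 in limma there were 5 of 35 higher and 0 lower, beside 4.1% and 2.11% of all genes. Of the 35 genes 24 had a mean under 2, among them all 6 of the terminal route, which forms the membrane attack complex, and Cfb of the alternative route. The liver plasma protein list was likewise low, with all 5 measured members under 2.

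Of 11 other genes of the lectin and classical routes 8 had a higher and 3 a lower mean, with a median of 0.03, and 7 had a mean under 2. The largest difference among the 35 in size was that of Fcna, followed by that of the regulator Cd55 in the other direction. Fcna, which encodes a ficolin that recognizes sugars and acetyl groups and is made by macrophages, had 4.35 ± 0.58 against 3.00 ± 0.54 (SD, n = 5), a difference of 1.35 ± 0.31 that was seen in 5 of 5 mice, from 0.50 in mouse 4 to 1.82 in mouse 3. C2, the protease of the C3 convertase, had 5.61 ± 0.65 against 4.83 ± 0.75, and its within-mouse differences of 0.42 to 1.16 were all positive. Its levels fell apart by mouse, at 5.27 to 6.23 in mice 1 to 3 and 3.97 to 5.13 in mice 4 and 5. The difference was 0.78 ± 0.38 without the block, with an adjusted p of 0.790 in limma. With the mouse as a block its SE was 0.11 and its adjusted p in limma 0.234, as for Fcna, the lowest of all genes. Unlike the C1q genes, C2 differed most in mouse 5. Colec12, a scavenger collectin of vessels and stroma, differed by 0.27 ± 0.18, or 0.12 without denervated array 5, and Mbl1, near the floor at 0.62, by -0.14 ± 0.07.

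Regulators other than Serping1 mostly had lower means, in 9 of 11 genes, 5 of them with a mean of at least 4. The median of the 11 was -0.06, or -0.01 without denervated arrays 2 and 3, and 6 of the 11 had a mean under 2. Over all genes 55.8% had a higher mean. Cd55, which speeds the decay of C3 convertases, had 7.25, 6.57, 1.49, 7.63 and 7.56 in denervated arrays 1 to 5 and 6.57 to 7.88 in the contralateral arrays. Its difference of -1.17 ± 1.01 came down to -0.02 without denervated array 3. Clu, whose product clusterin blocks the terminal complex, had 10.40 in the same array and 12.23 to 12.69 in the 9 others, with a difference of -0.50 ± 0.37, or -0.07 without that array. Array 3 was also the array low in epithelial markers, by -2.61 in the mean of the 10 markers; the part of this in Cd55 and Clu was not tested. Cd59a, a blocker of the terminal complex, differed by -0.03 ± 0.32, and Cr1l (Crry), the rodent regulator of C3 convertases, by -0.08 ± 0.09, each lower in 4 of 5 mice. Cd59a ranged from -0.22 without denervated array 4 to 0.15 without denervated array 2, and Cr1l was -0.03 without denervated array 5. Susd4 differed by -0.32 ± 0.20, or -0.16 without denervated array 3, and Csmd1, at a floor-like mean of 0.70, by -0.14 ± 0.07.

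Among 6 other receptor genes 5 had a higher mean. Cd93, once described as a C1q receptor and found on endothelium and myeloid cells, had 6.96 ± 0.13 against 6.77 ± 0.11, a difference of 0.19 ± 0.08. Itgb2, the shared chain of complement receptors 3 and 4, was named after its values were seen. It had 1.89 to 3.12 in the denervated and 1.69 to 2.29 in the contralateral arrays, a difference of 0.52 ± 0.22, higher in 5 of 5 mice, while the partner chains Itgam and Itgax had levels of 0.50 to 1.35. C8g, a terminal component at a mean of 1.36, differed by 0.27 ± 0.11.

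**Figure D5:**
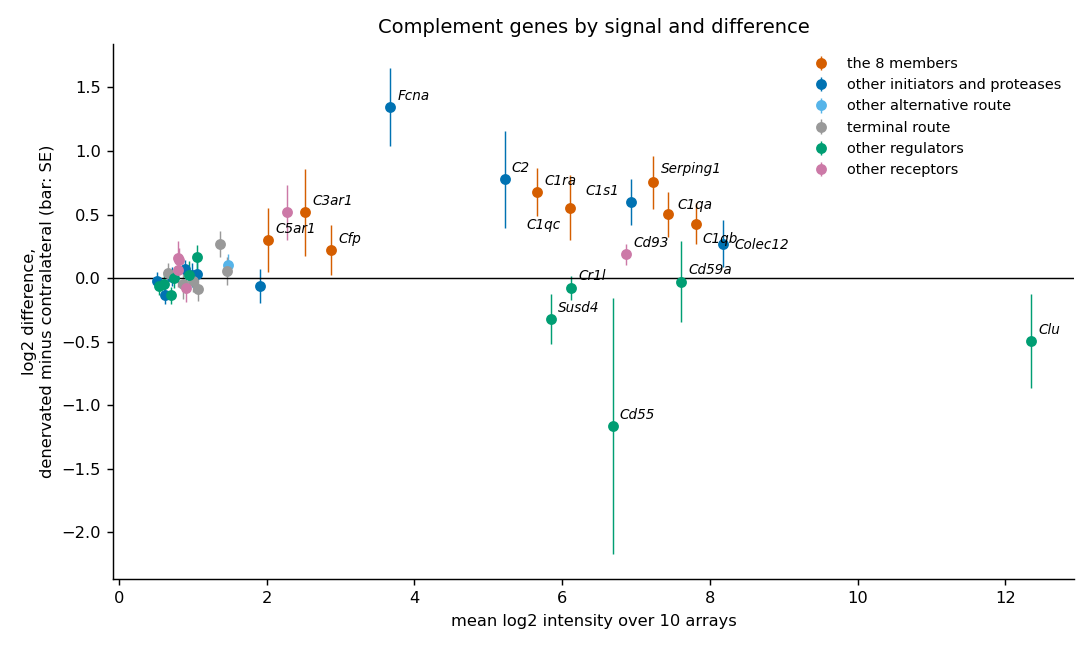
Log2 difference, denervated minus contralateral, with SE (vertical axis), against the mean log2 intensity over the 10 arrays (horizontal axis) for the 8 members and 35 other complement genes, coloured by role. The members lie above 0 across the range, Fcna is highest at 1.35, and Cd55 and Clu lie below 0 with wide errors.

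Outside complement, 7914 other genes with a mean of at least 4 were searched for a like pattern, by Pearson's r over the 10 arrays after centring within each group. The genes most like the mean of the C1q genes were the kinase gene Pim3 (r = 0.96), Fcer1g (0.94), the signalling chain of Fc receptors, and Josd2 (0.94). C1ra was most like Ptp4a3 (0.97), a phosphatase gene, the coreceptor gene Nrp1 (0.96) and Stat6 (0.96). Serping1 was most like Ltbr (0.98), the lymphotoxin beta receptor gene, Kctd2 (0.96) and Flt4 (0.95), a receptor of lymphatic endothelium. Since the groups were centred first, this likeness concerns spread within groups. The group differences of these 9 genes ran from -0.01 ± 0.15 for Ltbr to 0.62 ± 0.39 for Flt4. Fcer1g, itself among the macrophage markers, differed by 0.55 ± 0.21, Ptp4a3 by 0.36 ± 0.19 and Nrp1 by 0.25 ± 0.10, and the other 4 by 0.05 to 0.15.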

How the data were processed

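Total RNA from 10 samples was measured on oligonucleotide arrays. Each deposited value is a log2 intensity of a probe set, made with RMA per the submitters' processing notes, with no version given. The log2 scale was read from the values, and the variant of RMA and its background step are not given in the sources used here, so differences between low values depend on it. No detection calls are held, and low values may be background. Of 45101 probe sets 64 controls were left out; 34945 name 1 symbol (annotation of the platform), and the highest mean per symbol gave 18193 genes.

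Denervated and contralateral arrays were compared with limma 3.58.1 in R 4.3.3 (lmFit, eBayes); p-values were adjusted over all genes by Benjamini-Hochberg, at a threshold of 0.05; differences are denervated minus contralateral, with limma's SE and 95% intervals. Arrays of equal number were taken to pair: the design text says both incisors of 5 mice were used, and deviations from group means correlated by 0.18 to 0.57 in the 5 same-numbered pairs against -0.41 to 0.22 in the 20 others. The mouse as a block was the alternative fit. Whether all samples were prepared together is not stated. Without the block, p-values rest on the spread between arrays of the same side, which includes differences between mice. With the block, they rest on the spread of the within-mouse differences. In both fits the p-values rest on 5 mice of a single strain, and other mice were not measured. The fits were tested on simulated data. The members and lists were chosen with earlier results of these data known. Named genes are the 8 measured members, other complement genes with a mean of at least 4 or among the 3 smallest unadjusted p of a direction, 4 macrophage genes and the 3 most like genes of each pattern; a gene outside this is said so or serves to show a marker list. Promoter windows are from RefSeq, GRCm38.p6. Alternatives were normalization, filters, probe set choice, variance model and leaving out arrays.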

Additional observations from a re-analysis of the deposited data

Results flagged for a closer look

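In 42 groups of 5 arrays (8 members and 13 other complement genes, both sides) 3 held an array far from the others by Dixon's criterion, where chance gives about 1 in 20. The Cfp level of denervated array 2 was 3.76, against 2.67 to 2.94 in the other denervated arrays. The Cd55 level of denervated array 3 was 1.49, against 6.57 to 7.63. The Clu level of denervated array 3 was 10.40, against 12.23 to 12.69.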

How the results depend on the processing

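Over 25 alternatives 196 of 197 member differences kept their direction and 0 passed the threshold, with adjusted p-values down to 0.255; Cfp, C3ar1 and C5ar1 drop out where a mean of at least 4 is asked. The exception was Cfp at -0.021 without denervated arrays 2 and 3. With the replicate block the pairing changed no call (C1qa adjusted p 0.399). The count of genes past the threshold was 0 to 1 over the settings that leave out a mouse with the block, the 1 being Fcna without mouse 4 (adjusted p 0.027, difference 1.56), and 0 elsewhere. Members higher in every pair numbered 6 or 7, and 5 where a mean of at least 4 left 5 members. Settings that left out an array counted fewer pairs. The median of the members ranged from 0.17, without denervated arrays 2 and 3, to 0.59. The change of C1q relative to macrophage markers was 0.162 with the mean of probe sets and 0.010 to 0.102 when 1 array was left out; the cause was not tested. Centring arrays on their median gave a median of 0.41. The number of arrays limits the precision, and the levels of Cfp, C3ar1 and C5ar1 were low.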
